A study of Cucumis melo with 12 samples.

Results

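RNApol subB (MELO3C011383, DNA-directed RNA polymerase subunit beta), RPB7 (MELO3C027194, a subunit of RNA polymerase II), PPR (MELO3C008512, a pentatricopeptide repeat protein) and Prot (MELO3C027069, a proteasome subunit beta) were followed across melon (Cucumis melo) seeds and radicles after seed inoculation with Bacillus velezensis FZB42. They are 4 of the 3256 genes and loci with a listed value in at least one group. They were taken by identifier, with names from the study's own supplementary list of selected genes. That list was drawn up on these samples, so the presence of the genes among the responding ones is not evidence by itself.

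Multisubunit RNA polymerases copy DNA into RNA. The subunit called beta forms, with the largest subunit, the catalytic centre of the plastid and bacterial enzymes, and the corresponding second largest subunit of the nuclear enzymes carries related names, so the description alone does not say which polymerase MELO3C011383 belongs to. RPB7 pairs with RPB4 in a stalk on RNA polymerase II, the enzyme that makes messenger RNA, where it contacts the emerging transcript. Pentatricopeptide repeat proteins form a very large family in land plants, and most bind RNA in mitochondria or plastids, where they act in editing, splicing and stability of organelle transcripts. Beta subunits form the inner rings of the proteasome core particle, and some of them carry the sites that cut ubiquitin-marked proteins. The functions of RPB7 and of the proteasome core are needed in essentially every living plant cell.

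Mock seeds of the melon variety Rochet Panal were kept in water for 90 min. Inoculated seeds spent the same time in a suspension of washed bacteria, which held 7 log10 CFU per ml for the low dose and 8 log10 CFU per ml for the high dose. RNA was taken from the seeds and from radicles of 5-day-old seedlings grown in darkness, with 2 libraries for each of the 6 groups. The study calls them biological duplicates, the labels name polyadenylated RNA, and the study's methods describe libraries depleted of ribosomal RNA. The comparison asks whether transcripts respond to the dose of a growth-modulating bacterium in the seed and in the organ that emerges from it.

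The deposited lists give 1 combined value per gene and group, only for selected genes. The radicle lists held 3147 genes for mock, 291 for the low dose and 3106 for the high dose, and the seed lists held 153, 131 and 32 genes in the same order. The authors call the values FPKM, yet they do not behave as values per length, since 37 genes in mock radicles share one lowest recurring value of 0.549. They were handled as a relative signal whose scale is not given. The spread between libraries and the number of reads behind a value are therefore unknown here, no difference was tested, and every difference below is a description of 2 numbers. In such bulk tissue fewer cells of a type and less RNA per cell cannot be told apart. Tissue identity was not checked, because the identifiers are not paired with gene names beyond the study's selected ones. Genes absent from a list were left without a value, and anything under 1e-10 counts as 0.

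All 4 genes were on the low-dose and mock radicle lists, 3 were on the high-dose radicle list, 3 on the high-dose and mock seed lists, and 1 on the low-dose seed list. Zeros separated them into different kinds of profile. RNApol subB was above 0 wherever it was listed and always among the highest values of the list. RPB7 and Prot were at 0 in mock radicles and on the high-dose seed list but above 0 in radicles of both doses. Their 0 on the mock seed list repeats the high-dose value and is not a measurement of mock seeds. PPR was above 0 in mock and high-dose radicles and at 0 in low-dose radicles.

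**Figure D1:**
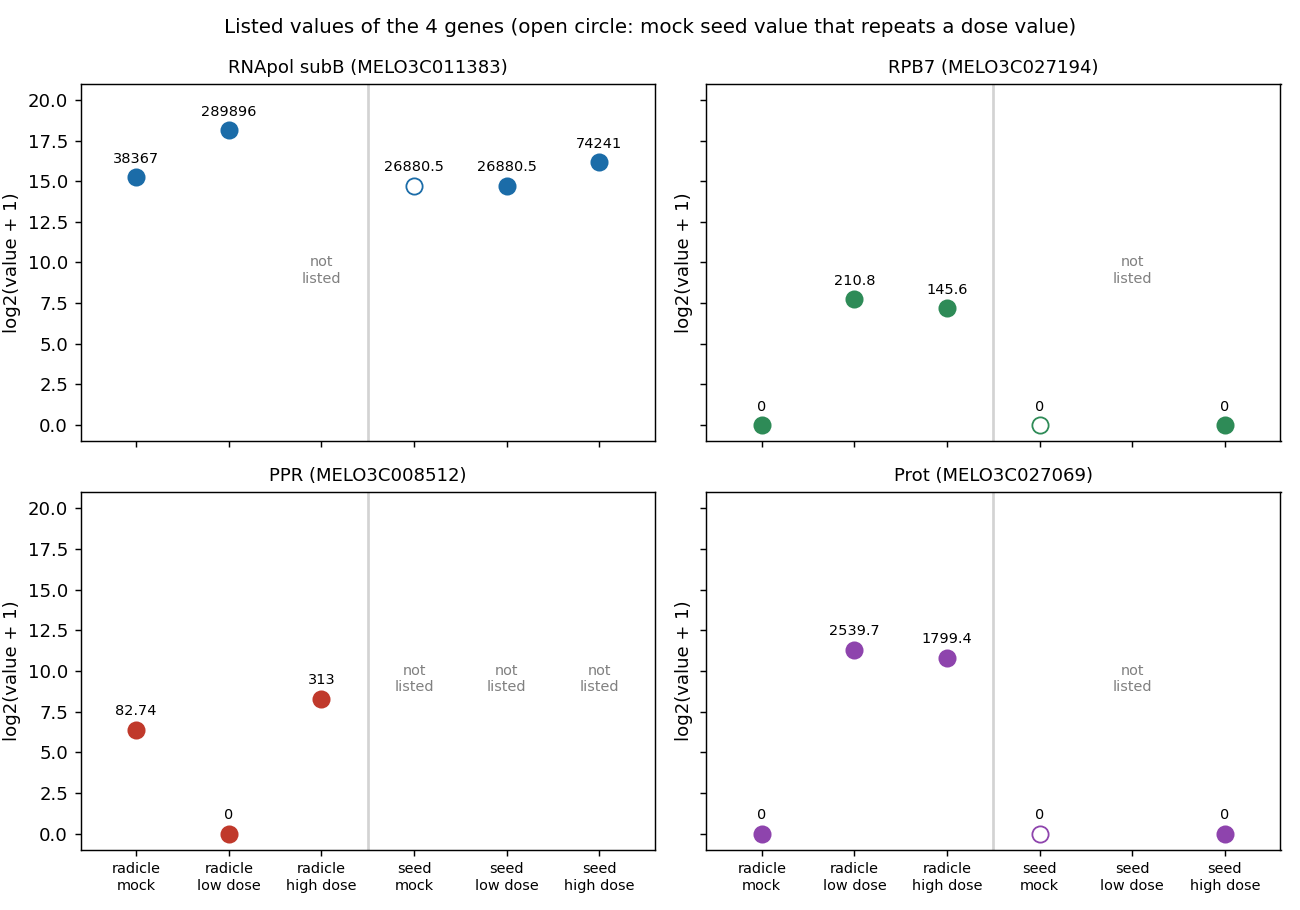
Listed values of the 4 genes, 1 panel each, with the group on the horizontal axis and log2(value + 1) on the vertical axis, and the value written above each point. Each point is the authors' single value for a group, so there is no error bar, and open circles are mock seed values that repeat the value of a dose. RNApol subB lies between 26880.5 and 289896, whereas the other genes have a point at 0 on at least one list.

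RNApol subB was the gene with the highest listed values of the 4. It was listed at 289896 in low-dose radicles, against 38367 in mock radicles. The low-dose value was 7.56 times the mock value, a log2 difference of 2.92 on the log2(value + 1) scale. Both values stand near the top of their lists, the 4th of 291 genes at the low dose and the 29th of 3147 genes in mock. The gene is not on the high-dose radicle list, so its level at that dose is not known.

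Among the listed genes the size of the difference was less exceptional than the level. Over the 291 genes of the low-dose list the median log2 difference from mock was 1.74, and RNApol subB ranked 93rd from the highest. On this list 74.2% of the genes were above mock by more than 1 log2 unit. With the median log2 ratio, 1.66 over genes above 0 in both lists, taken out, 1.25 remained for RNApol subB, and with equal totals 1.38. Both scalings used only listed genes, which had to differ to be listed. How much of the response the scaling took out was not tested. Among the 41 genes on the low-dose list but not the high-dose list, its low-dose value ranked 2nd and its log2 difference 11th from the highest.

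In seeds RNApol subB was listed at 74241 at the high dose, against 26880.5 at the low dose. That is 2.76 times as much at the high dose, a log2 difference of 1.47, which was the 2nd highest of the 10 genes on both seed dose lists. Those genes ran from -1.24 to 1.54, with 7 higher and 3 lower at the high dose, and 40% of them were higher by more than 1. For RNApol subB, as for all 10 of these genes, the mock seed list carries the low-dose value again. The lists therefore hold no measurement of mock seeds for this gene, and the 2.76 times says nothing of whether either dose lay above or below mock seeds. With equal totals over these genes the log2 difference was 0.23, and with the median log2 ratio of 0.71 removed it was 0.76.

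Only 3 genes are on exactly these 5 lists, and one of the other two was close to RNApol subB. MELO3C030931, for which no name was available, was the nearest by its radicle values, at a distance of 0.64 over 2 radicle lists on the log2 scale, against 6.83 for the lipid-transfer protein NSLTP (MELO3C009108). MELO3C030931 was listed at 294865 in low-dose radicles, against 59610 in mock radicles. In seeds, whose values the distance did not use, it was listed at 61896 at the high dose, against 27376 at the low dose. As listed, its log2 differences were 2.31 in radicles and 1.18 in seeds, both somewhat smaller than those of RNApol subB. Equal totals over the 10 genes on both seed dose lists take out 1.24, more than its 1.18. Its direction in seeds thus depends on the scale, and 40% of those 10 genes were higher by more than 1. NSLTP, a small secreted lipid-binding protein, differed in the other direction, with -1.22 in radicles and -0.49 in seeds.

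**Figure D2:**
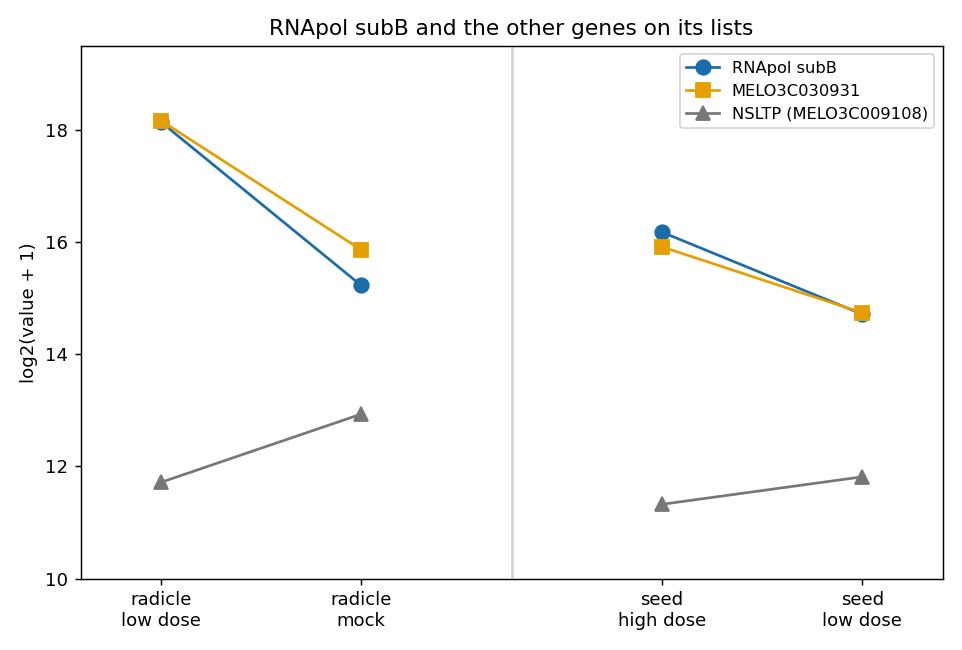
log2(value + 1) of the 3 genes that share the lists of RNApol subB, with low-dose and mock radicles on the left and high-dose and low-dose seeds on the right, and lines joining the 2 values of a tissue. The mock seed value is left out because it repeats the low-dose value. As listed, RNApol subB and MELO3C030931 are higher in low-dose than mock radicles, by 2.92 and 2.31. They are also higher as listed in high-dose than low-dose seeds, by 1.47 and 1.18, but the seed direction of MELO3C030931 depends on the scale. NSLTP is lower in both comparisons.

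RPB7 and Prot showed one profile at different levels. In mock, low-dose and high-dose radicles RPB7 was listed at 0, 210.8 and 145.6. In the same groups Prot was listed at 0, 2539.7 and 1799. In radicles both genes thus had a value above 0 at both doses and not in mock, and for both the higher listed value was at the low dose.

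Essentially every living plant cell uses genes of these kinds, so a 0 is given only as a listed 0 and no fold is set against it. At both doses the values stood high among the genes that mock lists at 0. On the high-dose list 201 genes were at 0 in mock, with high-dose values from 10.1 to 1799 and a median of 18.7. Prot had the highest value of the 201 and RPB7 the 5th highest. On the low-dose list 24 genes were at 0 in mock, with a median of 142, and Prot ranked 2nd and RPB7 6th. These genes had to differ to be listed, so the ranks describe level and are not support for a difference.

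Between the doses both genes differed little and by nearly the same amount. High-dose radicles had 69.1% of the RPB7 value of low-dose radicles, a log2 of -0.53, and 70.8% of the Prot value, a log2 of -0.50. Prot therefore stood at 12.4 times RPB7 in high-dose radicles and 12.1 times in low-dose radicles, as ratios of listed values that are not per gene length. Over the 250 genes on both dose lists the median log2 difference was -0.19, with 181 genes lower and 69 higher at the high dose, and 20.4% were lower by more than 1. Under quantile normalization the difference of RPB7 turned to 0.38 while that of Prot was -0.37, so the direction for RPB7 depends on the scale.

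Of the 250 genes on both dose lists, 20 (8%) were at 0 in mock and above 0 at both doses, RPB7 and Prot among them. As listed, all 20 were lower at the high than at the low dose. In the other 18 genes the log2 difference ran from -2.39 to -0.58 with a median of -1.68, so RPB7 and Prot were the 2 with the smallest difference between doses. The unnamed gene nearest to Prot in high-dose value, MELO3C001711, was listed at 1730 at the high dose, against 2816 at the low dose. The one nearest to RPB7, XLOC_020094, was listed at 162 against 383, a log2 of -1.24. Both were picked after their values were seen. The high-dose values of the 20 genes began at 20.9 and their low-dose values at 105.9, and the part of this lower end in the differences was not tested.

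**Figure D3:**
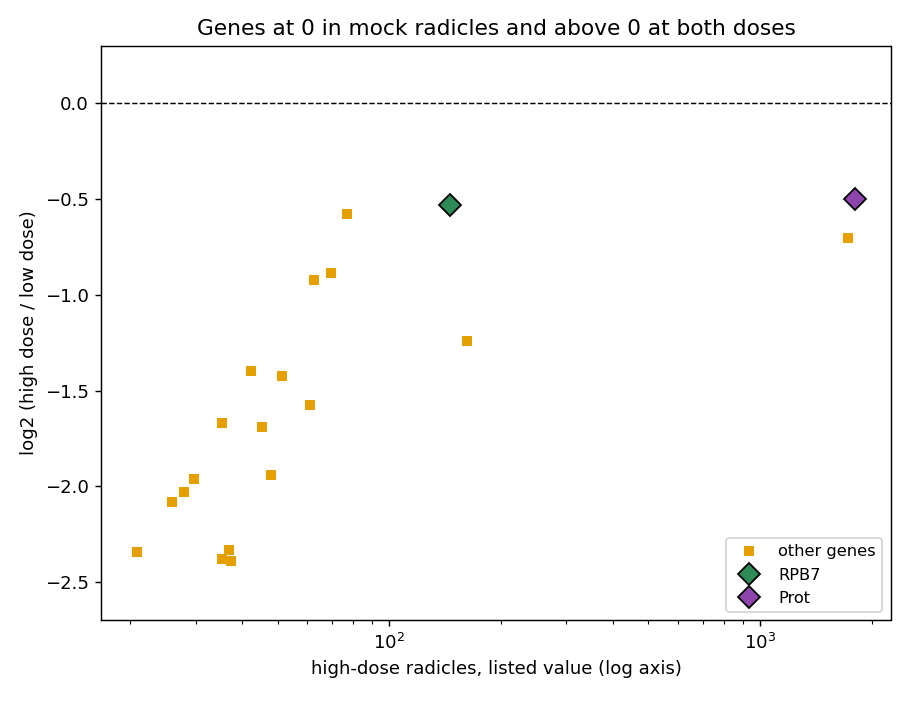
The 20 genes listed at 0 in mock radicles and above 0 at both doses, with the high-dose value on the horizontal log axis and the log2 ratio of the high to the low dose on the vertical axis. Each point is a gene, and the dashed line marks equal values. As listed, RPB7 at -0.53 (0.38 under quantile normalization) and Prot at -0.50 are nearest to the line, and the other 18 genes lie from -2.39 to -0.58.

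In seeds RPB7 and Prot were the only genes at 0 on the high-dose list, 2 of its 32 genes (6.25%). The mock seed list gives both at 0 as well, and neither is on the low-dose seed list. Of the 20 radicle genes at 0 in mock and above 0 at both doses, these 2 were also the only ones on any seed list. Among all 3256 genes and loci, 44 were on both a radicle and a seed list. RPB7 and Prot were taken from the study's list of selected genes, which holds both with seed and radicle entries. Nothing is therefore read from their place on a seed list. Another 4 genes are on the same 5 lists as RPB7 and Prot, and each of those was above 0 on every one of them. The mock seed list repeats the high-dose value of all 22 genes that are on the high-dose seed list alone, so the 0 on the mock seed list is not a measurement of mock seeds. The level of both genes in mock seeds is not known from the lists, and high-dose seeds cannot be set against mock seeds with them.

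Of the 3 members on all radicle lists, PPR was the one whose doses lay on opposite sides of mock. In mock, low-dose and high-dose radicles it was listed at 82.7, 0 and 313.0. The high-dose value was 3.78 times the mock value, a log2 difference of 1.91. With the median log2 ratio of -0.79 of that list removed, the difference was 2.69. With equal totals it was 1.80, and under quantile normalization 1.34. No fold is given for the low dose, because the gene is listed at 0. PPR is on no seed list.

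At the high dose the difference of PPR was near the middle of those of listed genes at its level. Among 57 high-dose genes whose mock value was within 1.5 times that of PPR, 44 were above mock. Their log2 differences ran from -4.85 to 4.57 with a median of 1.83, and PPR ranked 26th from the highest. These genes had to differ to be listed, so the rank places PPR among listed genes only. On the whole high-dose list 31.3% of the genes were above mock by more than 1. RPB7 and Prot also count among these through their 0 in mock, so 3 of the 3 members on that list were higher by this rule, and nothing is read from that because the members were selected on this contrast.

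At the low dose PPR stood alone. It was the only gene at 0 among the 291 on that list (0.344%), where the lowest value above 0 was 16.9. Of the 70 genes below mock on the low-dose list it had the lowest mock value, 82.7, against a median of 2946. That mock value was 151 times the lowest recurring value of the mock list. For comparison, 8 genes were at 0 on the high-dose list, and their mock values ran from 12.0 to 989 with a median of 22.3. By the rule of more than 1 log2 unit, 3 of the 4 members were above mock and PPR was below, on a list where 74.2% of the genes were above and 23.7% below by that rule, so the members' counts are near those of the list.

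Between the doses PPR was listed at 313.0 at the high dose, against 0 at the low dose. It was one of only 3 of the 250 shared genes (1.2%) that were higher by more than 1 at the high dose, and its place among the 3 is not given because it depends on the number added to a listed 0. PPR was also one of 5 genes (2%) whose doses lay on opposite sides of mock, and 2 of these were above mock in high-dose and below it in low-dose radicles. The other of these was the lipoxygenase gene MELO3C014630, an enzyme that oxidizes fatty acids, with values of 519.7, 62.4 and 2859 in mock, low-dose and high-dose radicles. The study's list of selected genes already gives both PPR and this gene opposite directions at the 2 doses in radicles. Their place among the 5 is therefore not evidence by itself. Of the 234 genes on the same lists as PPR, itself included, no other shared its pattern of zeros, so no gene is named as most like it.

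**Figure D4:**
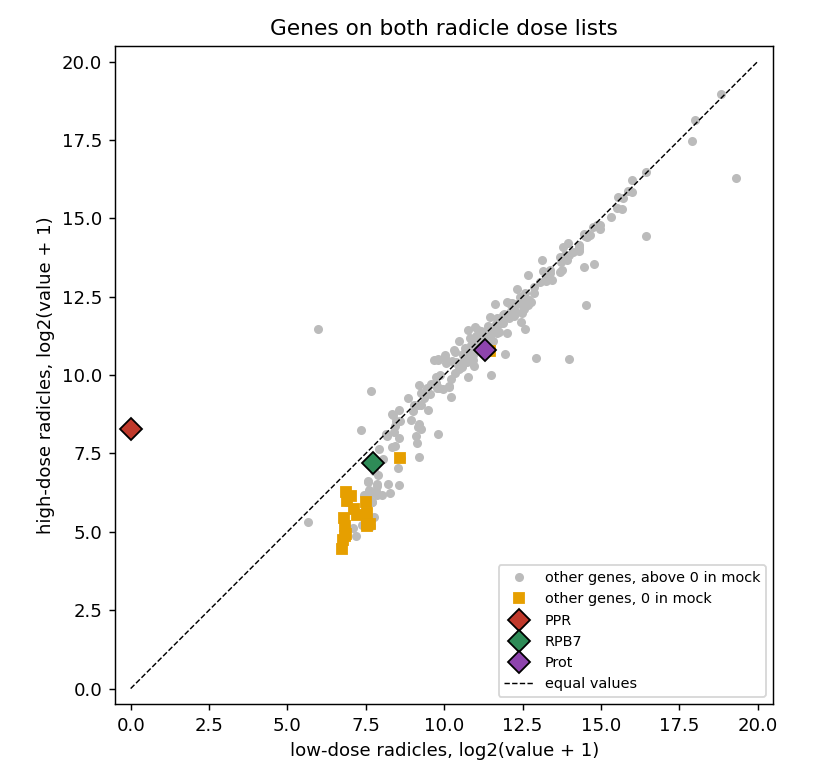
The 250 genes on both radicle dose lists, with log2(value + 1) at the low dose on the horizontal axis and at the high dose on the vertical axis. Each point is a gene, squares are other genes at 0 in mock, diamonds are members, and the dashed line marks equal values. PPR lies alone at 0 on the low-dose axis with 313.0 at the high dose, whereas RPB7 and Prot, as listed, lie just under the line (RPB7 at 0.38 above it under quantile normalization).

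The stored form of a 0 differed between lists. In the high-dose radicle list a 0 is stored as 1.39e-17, and so are all 201 zeros of mock genes that are on the high-dose list, among them those of RPB7 and Prot. In the low-dose radicle list the single 0, that of PPR, is stored as 5.55e-17, and so are the 4 zeros of mock genes that are on the low-dose list alone. The mock value of RNApol subB, which is not on the high-dose list, thus falls in the portion of the mock list whose zeros match the low-dose list. The mock values of PPR, RPB7 and Prot fall in the portion whose zeros match the high-dose list. Whether the 2 portions of the mock list are on one scale was not tested, which bears on the low-dose comparison of PPR, RPB7 and Prot with mock. In seeds the zeros of RPB7 and Prot are stored as 4.16e-17 on both the high-dose and the mock list, whereas the 3 zeros of the low-dose list are stored as 5.55e-17.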

How the data were processed

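RNA of 12 melon samples, 2 in each of 6 groups, was sequenced by the authors, and groups were taken from the sample titles. In the study's methods reads were aligned to the genome of cv. DHL92 v4 by the sequencing provider. Bowtie2 and SAMtools are the tools in the submitters' processing notes. The authors deposited 6 lists of selected genes with 1 signal value per gene, named FPKM, that combines the libraries of a group on an unstated scale. Of 3256 identifiers 0 matched the RefSeq gene table supplied, which also holds no sequences, so no sequence, position or description was added.

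No test was possible on single values. Differences are log2 ratios after adding 1, called past an absolute value of 1, and 2 values within a relative 1e-06 of each other count as identical. The planned named genes were the members and, for each, the nearest gene on the same lists with the same zeros. Members and lists were chosen with earlier results of these data known. Alternatives were pseudocounts of 0.1 and 10, quantile normalization, median ratio and total scaling, and other thresholds for 0 and identity. The functions were tested on data simulated from mock radicle values, with equal numbers of genes raised and lowered and most left unchanged. The deposited lists of selected genes differ from that setting, so the test does not show how scaling acts on them. Python 3.11.15, pandas 2.3.3, numpy 2.4.6 and matplotlib 3.10.9 were used.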

Additional observations from a re-analysis of the deposited data

Results flagged for a closer look

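PPR (MELO3C008512) was picked out because the 2 doses lie on opposite sides of the same mock value in radicles. Its values were 313.0 in high-dose and 0 in low-dose radicles, against 82.7 in mock radicles. The difference between the doses was not tested, since there is 1 value per group. The study's list of selected genes, from which PPR was taken, already gives it these opposite directions.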

How the results depend on the processing

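No paired analysis was possible because each list holds 1 value per gene for both libraries, and for the same reason no replicate could be left out. Where both values are above 0, pseudocounts of 0.1 and 10 changed the ratio behind a log2 difference by a factor of at most 1.5. This covers RNApol subB in radicles and in seeds, PPR at the high dose, and RPB7 and Prot between the doses. Differences from a listed 0 depend on the number added and are not given as values. Scaling changed more. In low-dose radicles RNApol subB, 2.92 as listed, was at 1.51 under quantile normalization, 1.25 under median ratio scaling and 1.38 under total scaling. In seeds, 1.47 as listed, it was at 0.19, 0.76 and 0.23 in the same order, over only 10 genes. PPR at the high dose, 1.91 as listed, was at 1.34, 2.69 and 1.80 in the same order. RPB7 between the doses, -0.53 as listed, turned to 0.38 under quantile normalization, and the cause was not tested. The same difference of Prot stayed between -0.50 and -0.11. Calling values under 10 zero gave 49 genes at 0 in mock and above 0 at both doses, against 20, since that threshold takes in low mock values. The 3 members with a mock seed value identical to a dose value were the same number under a tolerance of 0.001. Of the ranks within lists, those of RNApol subB in low-dose and mock seeds fell to 60% of genes below it over the 10 genes shared by all seed lists, against 93.1% and 93.5%. The lists hold no read counts, so what depth limits was not computed.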

Other observations

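On the low-dose radicle list, 17 of the 24 genes at 0 in mock had values that differ from one another by whole multiples of 0.745, within 0.01 of a step, at levels from 109.5 to 2816. RPB7 lay 0.20 of a step and Prot 0.053 of a step from the nearest such value, and so were among the 7 that did not share the spacing. The spacing was noticed after the values were seen and no chance level was computed for it.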
